A study of Mus musculus with 18 samples.

Results

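Autophagy and lysosome genes were followed in cultured mouse pre-B cells with interleukin 7 (IL-7) and after its withdrawal, on Illumina MouseRef-8 expression arrays. A list of 38 genes was matched by gene symbol to the probes of the array. A gene was tested where a probe had a detection p-value below 0.01 on 3 or more of the 18 arrays, and its brightest probe stood for the gene. Of the 38 genes, 35 had a probe and 31 were tested, among 8446 genes or unnamed probes in all. Bnip3, Ctsd, Ctsl and Gla had a probe that was detected on 0 of the 18 arrays, and Atg9a, Optn and Npc1 were not analysed here.

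The 18 arrays came from 9 cultures, 3 per genotype. A culture gave 1 array at 2 days after IL-7 was withdrawn and 1 array in IL-7 (day 0), which makes 6 groups of 3 arrays. By the labels, the Art:Nfkb2-labelled cells were Art-/-:Nfkb2-/-:IgH:Bcl2, the Art-labelled cells Art-/-:IgH:Bcl2 and the Rag-labelled cells Rag-/-:IgH:Bcl2, which the design text writes as Rag1-/-. All 3 genotypes, the Rag-labelled controls included, carried, by the labels, an immunoglobulin heavy-chain transgene and a Bcl2 transgene, whose product keeps cells alive without a survival cytokine. Which promoters drive the transgenes is not stated in the labels. RAG1 cuts the antigen receptor genes, Artemis (Art) opens the hairpin ends of these breaks for repair, and Nfkb2 is a subunit of noncanonical NF-kB. The marrow came from mice aged 4 to 6 weeks of mixed C57BL/6 and BALB/c background, and the cells grew for 7 to 10 days with 5 ng/mL of IL-7 before the experiment.

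In autophagy a membrane sac closes around cytoplasm or a marked cargo and fuses with the lysosome, whose acid hydrolases digest the content. The ULK kinases start the process, a lipid kinase complex with Beclin 1 and UVRAG prepares the membrane, and a conjugation system around ATG5, ATG12 and ATG16L1 attaches the ATG8 proteins (the LC3 and GABARAP families) to it, where cargo receptors bind. Growth factor signals through mTORC1 restrain the ULK kinases and keep TFEB, a transcription factor of lysosomal genes, out of the nucleus, and IL-7 is the main growth factor of early B cells.

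TFEB binds the CLEAR element, whose core is CACGTG, and the promoters of these genes were searched for that core. TFEB binding was not measured, and the core alone does not show it. RefSeq promoters of build GRCm38.p6, from 250 bases before to 50 bases after the start, were matched for 24 of the 31 genes. CACGTG, which reads the same on both strands, stood in the promoters of 7 of the 24 (29.2%), against 8.1% of 27025 genes with a promoter, and the longer TCACGTG, which contains it, in 6 of the 24 (25%) against 4.3%. The FOXO motif GTAAACA, on either strand, stood in 0 of the 24 against 4.1%. The 7 genes were Atg3, Atg5, Atg7, Ctsa, Glb1, Lamp1 and Mcoln1, of which Atg5 alone lacked TCACGTG. The genes were listed for their part in autophagy and the lysosome, so these shares are no independent evidence on TFEB. No test was run on the shares, and the 27025 genes were not limited to those detected on these arrays. Below are the stretches around the upstream cores (capitals, all on the plus strand of the gene) in Lamp1, with 4 copies, in Mcoln1 and Atg3, with 2 copies each, and in Atg5, with 1 copy. Mcoln1 and Atg5 changed on withdrawal in the tests that follow, and the changes of Lamp1 and Atg3 did not pass. They lie at chr8:13159080-13159160 (Lamp1), chr8:3500428-3500499 (Mcoln1), chr16:45158715-45158783 (Atg3) and chr10:44268305-44268338 (Atg5).
Lamp1: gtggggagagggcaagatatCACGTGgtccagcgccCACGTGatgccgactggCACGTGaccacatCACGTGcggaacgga
Mcoln1: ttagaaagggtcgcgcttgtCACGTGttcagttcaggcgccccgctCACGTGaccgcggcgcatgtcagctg
Atg3: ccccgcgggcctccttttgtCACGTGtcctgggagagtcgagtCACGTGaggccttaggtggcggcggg
Atg5: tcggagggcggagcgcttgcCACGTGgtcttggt
The first core began 61 bases before the start in Lamp1, 71 in Mcoln1, 94 in Atg3 and 14 in Atg5.

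The arrays detected 10091 to 10894 probes each, and replicates correlated at 0.979 to 0.993. Of 10 pre-B markers with a probe, 9 or 10 were detected in each group, Cd79a, Cd79b, Vpreb1, Pax5, Ebf1, Blnk and Il7r among them on all 18 arrays. Myeloid cells are rich in lysosomes, and 16 of 18 myeloid markers were detected on at least 1 array; Itgam and Camp were detected on 0, and Lyz1 and Lyz2 on all 18. T and NK, erythroid and stromal markers were detected for 1 of 8, 2 of 4 and 2 of 7. The Rag1 and Nfkb2 probes gave signal in every group and were not lowest in the cells labelled as lacking the gene (Rag1 at 12.72 log2 in withdrawn Rag-labelled cells, Nfkb2 at 9.21 in withdrawn Art:Nfkb2-labelled cells), so they check neither label. The Bcl2 probe does not check the transgene either: it was detected on 3 of 3 withdrawn arrays of Art:Nfkb2-labelled cells, on 0 of 3 of Art-labelled and 0 of 3 of Rag-labelled cells, and on every IL-7 array. Y-linked signal was present in 1 of 3 cultures of Art:Nfkb2-labelled cells, in 0 of 3 of Art-labelled cells and in 3 of 3 of Rag-labelled cells, so that this signal and the genotype cannot be told apart between Art-labelled and Rag-labelled cells. In RNA from whole cultures, fewer cells of a kind and less RNA per cell cannot be told apart.

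The first comparison asked how these genes respond to the loss of IL-7. After 2 days, 7 of the 31 genes rose and 2 fell in Art:Nfkb2-labelled cells, 8 rose and 1 fell in Art-labelled cells, and 10 rose and 2 fell in Rag-labelled cells (limma, Benjamini-Hochberg adjusted p below 0.05 over all genes tested). Of all 8446 genes, 22.7% rose and 17.9% fell in Art:Nfkb2-labelled cells, 26.2% rose and 18.8% fell in Art-labelled cells, and 25% rose and 19.4% fell in Rag-labelled cells. In the same order of genotypes, 22.6%, 25.8% and 32.3% of the 31 genes rose and 6.45%, 3.23% and 6.45% fell. The shares that rose were thus near the background in Art:Nfkb2-labelled and Art-labelled cells. The 10 of Rag-labelled cells became 4 to 10 with 1 array left out. The shares that fell were below the background in each genotype, and no test was run on these shares. Ulk2, Atg5, Atg12, Atg16l1, Nbr1 and Ctsh rose in all 3 genotypes, 6 of 31 genes against 13.6% of all genes, and Npc2 fell in all 3, 1 of 31 genes against 12.5%. Uvrag changed in all 3 with mixed directions, 5 genes changed in 1 or 2 genotypes, and 18 passed in none. These counts are from a fit that did not pair the 2 arrays of a culture. With culture as a fixed block, all 31 withdrawal and response calls were kept and 11 were added. Some of the 18 genes then passed, as given below. The median log2 difference, withdrawn minus IL-7, was 0.11 for Art:Nfkb2-labelled, 0.22 for Art-labelled and 0.20 for Rag-labelled cells, beside 0.09, 0.11 and 0.10 over all genes; with genes below detection set to their bound the Art-labelled median was 0.13. The withdrawn and IL-7 arrays did not overlap for 13, 15 and 12 of the genes in the same order of genotypes, against 57.5%, 57.1% and 45.4% of all genes.

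**Figure D1:**
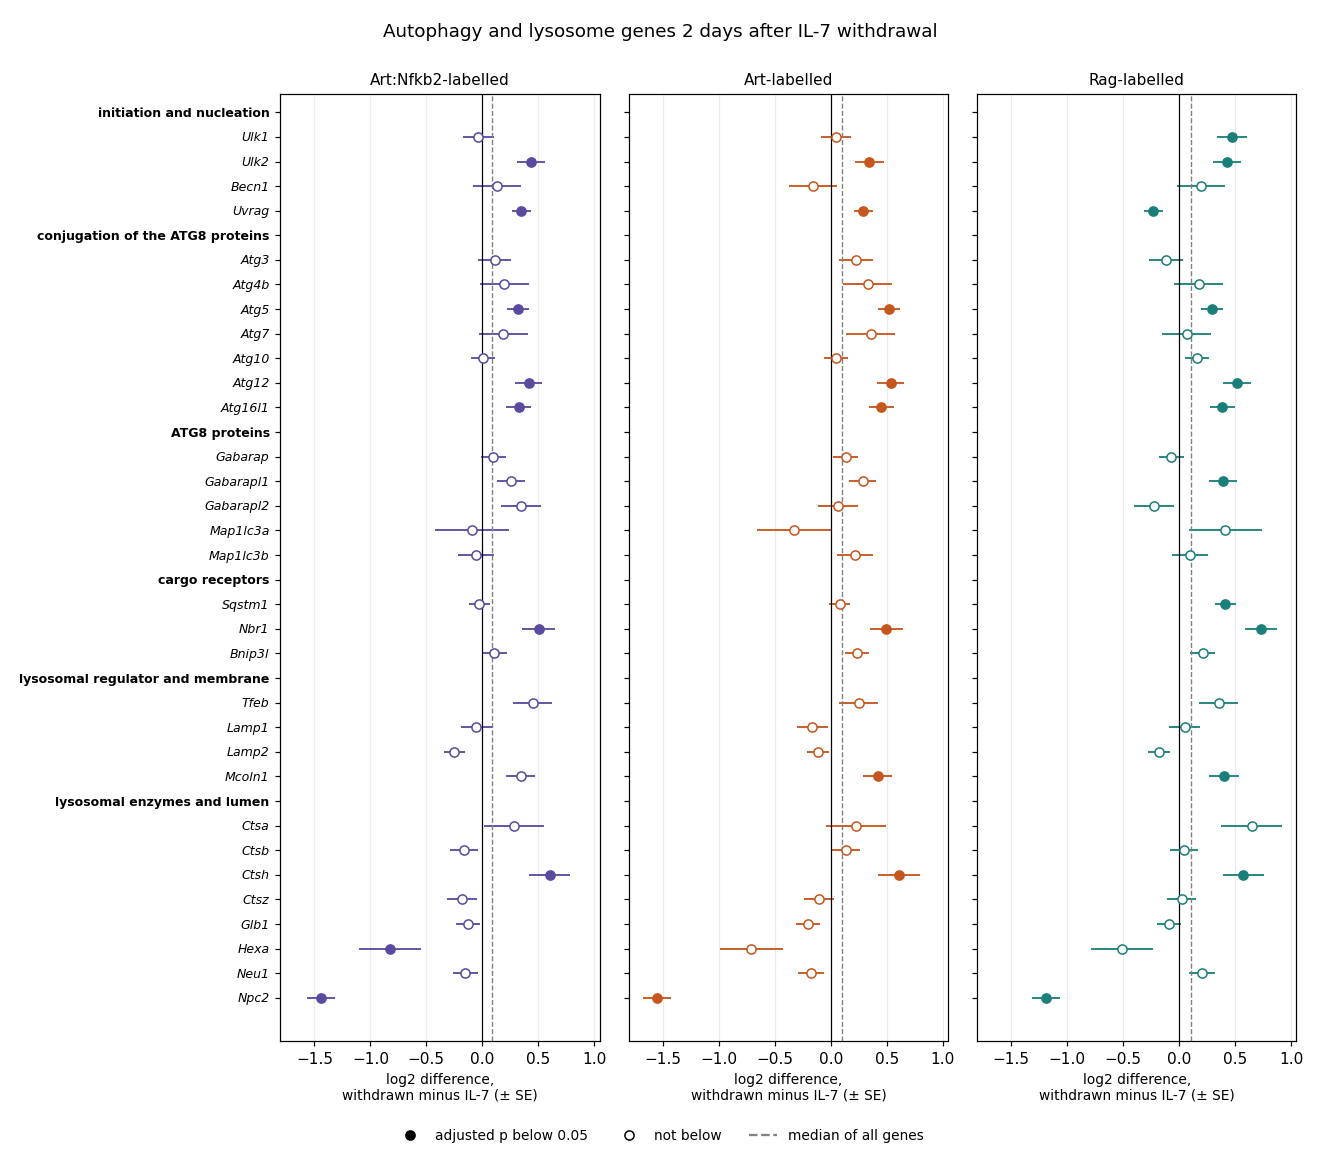
Log2 difference, withdrawn minus IL-7, with its standard error (horizontal axis) for each of the 31 genes, grouped by role (vertical axis), in the 3 genotypes; filled points have an adjusted p below 0.05 and the dashed line is the median of all genes. Npc2 stands apart on the left in every panel (-1.44, -1.55 and -1.19), while most filled points lie between 0.29 and 0.73. The points of Gabarapl2 in every panel and of Atg4b in Art-labelled cells are fitted values with a group below detection, not measured folds.

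Among the 4 tested genes of initiation and nucleation, Ulk2, a ULK kinase, rose in all 3 genotypes. Its log2 signal was 9.08, 9.05 and 8.91 on the withdrawn arrays of Art:Nfkb2-labelled cells, against 8.77, 8.60 and 8.37 in IL-7. In Art-labelled cells it was 9.37, 9.12 and 8.89 after withdrawal, against 8.76, 8.95 and 8.63 in IL-7. In Rag-labelled cells it was 9.20, 9.25 and 9.15 after withdrawal, against 8.82, 8.83 and 8.66 in IL-7. The arrays overlapped in Art-labelled cells and in neither of the other genotypes. The log2 differences of Ulk2 were 0.43, 0.35 and 0.43 (SE 0.13, adjusted p = 0.0134, 0.0369 and 0.0131) in Art:Nfkb2-labelled, Art-labelled and Rag-labelled cells, and a further probe gave 0.31, 0.43 and 0.64, the last of which passed in a fit over all probes (adjusted p = 0.0109). Its relative Ulk1, the kinase that mTORC1 holds in check, rose in Rag-labelled cells by 0.47 (SE 0.13, adjusted p = 0.0105), while its log2 difference was -0.03 in Art:Nfkb2-labelled and 0.05 in Art-labelled cells; a further probe gave -0.02, 0.03 and 0.40. Ulk1 read 10.47, 10.41 and 10.70 on the withdrawn Rag-labelled arrays, against 10.37, 9.85 and 9.94 in IL-7, so that the groups did not overlap, but array 1 of the IL-7 group came close to the withdrawn ones. The difference between the responses of Art-labelled and Rag-labelled cells did not pass for Ulk1 (-0.42, adjusted p = 0.352). Becn1, the scaffold of the lipid kinase complex, had log2 differences of 0.13, -0.15 and 0.20, with adjusted p of 0.655, 0.582 and 0.486. The Ulk2 call was lost without array 3 of the Art:Nfkb2-labelled cells in IL-7 (adjusted p = 0.0742), without array 3 of the Rag-labelled cells in IL-7 (0.0531), and in Art-labelled cells without withdrawn array 1 or 2, or IL-7 array 1 or 3 (0.187 at the highest) and without the detection filter (0.0604). The rise of Ulk1 did not hold without array 3 of the withdrawn or array 2 of the IL-7 group of Rag-labelled cells (adjusted p = 0.06 at the highest).

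Uvrag, the Beclin 1 partner that also takes part in endosome traffic, fell in Rag-labelled cells and rose in the other genotypes. It read 12.11, 12.01 and 12.03 on the withdrawn arrays of Art:Nfkb2-labelled cells, against 11.73, 11.69 and 11.69 in IL-7. In Art-labelled cells it read 11.96, 11.94 and 11.71 after withdrawal, against 11.61, 11.63 and 11.50 in IL-7. In Rag-labelled cells it read 11.41, 11.25 and 11.39 after withdrawal, against 11.54, 11.51 and 11.69 in IL-7. Withdrawn and IL-7 arrays did not overlap in any genotype, the withdrawn ones being the higher in Art:Nfkb2-labelled and Art-labelled cells and the lower in Rag-labelled cells, and the 3 IL-7 groups lay close together. The log2 differences were 0.35 (SE 0.09, adjusted p = 0.00468), 0.29 (adjusted p = 0.0121) and -0.23 (adjusted p = 0.0392). The fall in Rag-labelled cells was lost with median scaling (-0.14, adjusted p = 0.228), without the detection filter (0.05001), and without withdrawn array 2 or 3, or IL-7 array 3 (0.1495 at the highest). The rise in Art-labelled cells was lost without withdrawn array 1 or 2, or IL-7 array 3 (adjusted p = 0.0564 at the highest). The response of Art-labelled cells exceeded that of Rag-labelled cells by 0.52 (SE 0.12, adjusted p = 0.0489; 0.0231 with culture as a block), in a comparison in which 0.781% of all genes were called higher and 0.485% lower. Uvrag was the 1 gene of the 31 so called. That call was lost with median scaling of the arrays (adjusted p = 0.105), without the detection filter (0.0594), with the replicate number as a block (0.0565) and in 9 of 12 cases with 1 array left out (0.136 at the highest); it was kept without Art-labelled withdrawn array 3, Rag-labelled withdrawn array 1 or Rag-labelled IL-7 array 1.

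The Atg5, Atg12 and Atg16l1 genes, whose products form the complex that attaches ATG8 proteins to the membrane, rose together in all 3 genotypes. Atg12 read 11.61, 11.38 and 11.27 after withdrawal in Art:Nfkb2-labelled cells, against 11.19, 11 and 10.83 in IL-7. The Art-labelled arrays read 11.66, 11.49 and 11.40 after withdrawal, against 11.03, 10.93 and 10.99 in IL-7. The Rag-labelled arrays read 11.33, 11.74 and 11.43 after withdrawal, against 11.06, 10.89 and 11 in IL-7. No IL-7 array reached a withdrawn array of its genotype, and the log2 differences of Atg12 were 0.41, 0.53 and 0.52 (SE 0.12, adjusted p = 0.0147, 0.0025 and 0.00331). Atg5 differed by 0.32, 0.52 and 0.30 (SE 0.10, adjusted p = 0.0165, 0.000518 and 0.0227), and a further probe for it gave 0.38, 0.44 and 0.32. Atg16l1, which places the complex on the membrane, differed by 0.32, 0.45 and 0.39 (SE 0.11, adjusted p = 0.0321, 0.00432 and 0.0117). The withdrawn and IL-7 arrays overlapped in no genotype for either gene. The other 4 of the 7 conjugation genes passed in no genotype: Atg7, the activating enzyme, had 0.19, 0.36 and 0.07; Atg3, an enzyme that conjugates the ATG8 proteins, 0.11, 0.22 and -0.12; Atg10, which conjugates ATG12, 0.01, 0.05 and 0.16; and Atg4b, the protease that trims ATG8 proteins, 0.20 in Art:Nfkb2-labelled and 0.17 in Rag-labelled cells. Atg4b was near the detection limit, on 0 to 2 of 3 arrays in every group; in Art-labelled cells it was detected on 0 of 3 withdrawn arrays, so no fold is given there (adjusted p = 0.24). With 1 array left out, the Art-labelled calls held. In Art:Nfkb2-labelled cells, Atg5 was lost without withdrawn array 3, or IL-7 array 2 or 3 (adjusted p = 0.0709 at the highest), Atg12 without withdrawn array 1, or IL-7 array 3 (0.0778), and Atg16l1 without any withdrawn array, or IL-7 array 1 (0.135). In Rag-labelled cells, Atg5 was lost without withdrawn array 1, or IL-7 array 1 or 2 (adjusted p = 0.0968), and Atg16l1 without withdrawn array 1, or IL-7 array 2 or 3 (0.0593).

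Of the 5 ATG8 genes, Gabarapl1 rose, in Rag-labelled cells. It read 10.51, 10.59 and 10.52 after withdrawal in Art:Nfkb2-labelled cells, against 10.22, 10.46 and 10.17 in IL-7. In Art-labelled cells it read 10.76, 10.78 and 10.87 after withdrawal, against 10.45, 10.47 and 10.64 in IL-7. In Rag-labelled cells it read 10.09, 10.61 and 10.18 after withdrawal, against 10.06, 9.84 and 9.81 in IL-7. The groups overlapped in no genotype, although array 1 of the Rag-labelled cells moved little. The log2 differences were 0.26, 0.28 and 0.39 (SE 0.12), with adjusted p of 0.11, 0.0756 and 0.0189. The difference of the Art-labelled and Rag-labelled responses passed for no ATG8 gene. The Rag-labelled call was lost without withdrawn array 2, or IL-7 array 2 or 3 (adjusted p = 0.0902 at the highest), and with median scaling the Art-labelled difference passed too (0.038). Map1lc3b, which encodes the LC3B protein used to mark autophagosomes, had log2 differences of -0.06, 0.22 and 0.10 (adjusted p = 0.808, 0.287 and 0.66), Map1lc3a -0.10, -0.33 and 0.41 (0.843, 0.435 and 0.326), and Gabarap 0.10, 0.13 and -0.07 (0.52, 0.356 and 0.649). Gabarapl2 was detected on 0 to 2 of 3 arrays in every group, so no fold of it is given in any genotype. Its mean signal in Art:Nfkb2-labelled cells was 6.23 after withdrawal, detected on 2 of 3 arrays, and 5.88 in IL-7, detected on 0 of 3. That difference did not pass (adjusted p = 0.139), but it did with culture as a block (0.0264). Its mean signal in Art-labelled cells was 6.02 after withdrawal and 5.95 in IL-7, where it was detected on 0 of 3 arrays (adjusted p = 0.779). In Rag-labelled cells it was 5.96 after withdrawal, detected on 0 of 3 arrays, and 6.18 in IL-7 (adjusted p = 0.325).

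Of the 3 tested cargo receptor genes, Nbr1, whose product ties ubiquitin-tagged cargo to ATG8 proteins, rose in all 3 genotypes. It read 8.38, 8.02 and 8.09 after withdrawal in Art:Nfkb2-labelled cells, against 7.90, 7.57 and 7.51 in IL-7. The Art-labelled arrays read 8.48, 8.32 and 8.46 after withdrawal, against 7.97, 7.87 and 7.93 in IL-7. The Rag-labelled arrays read 8.58, 8.61 and 8.14 after withdrawal, against 7.92, 7.54 and 7.68 in IL-7. All 9 withdrawn arrays lay above the IL-7 arrays, and the log2 differences were 0.50, 0.50 and 0.73 (SE 0.14, adjusted p = 0.0119, 0.011 and 0.000835). The probes of Nbr1 disagreed in Art-labelled cells: the dimmer gave 0.57, 0.16 and 0.59, and with the mean of the probes the Art-labelled call was lost (0.33, adjusted p = 0.0982). The Art:Nfkb2-labelled call was lost without withdrawn array 1, or IL-7 array 3 (adjusted p = 0.0632 at the highest). Sqstm1, which encodes the related receptor p62, rose in Rag-labelled cells, where it read 12.63, 12.86 and 12.88 after withdrawal, against 12.44, 12.23 and 12.47 in IL-7. Its log2 difference there was 0.41 (SE 0.10, adjusted p = 0.00281), and it was -0.03 (adjusted p = 0.852) with Art:Nfkb2-labelled and 0.08 (0.525) with Art-labelled cells. The difference of the Art-labelled and Rag-labelled responses of Sqstm1 did not pass (-0.33, adjusted p = 0.29). Bnip3l, a receptor for mitochondria, had log2 differences of 0.11, 0.24 and 0.21 (adjusted p = 0.46, 0.0898 and 0.129); with culture as a block the last 2 passed (0.029 and 0.047).

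Among the lysosomal regulator and membrane genes, Mcoln1, the calcium channel of the lysosomal membrane, rose in Art-labelled cells by 0.42 (SE 0.13, adjusted p = 0.0173) and in Rag-labelled cells by 0.40 (adjusted p = 0.023). In Art:Nfkb2-labelled cells its difference was 0.34 (adjusted p = 0.0505, and 0.0286 with culture as a block). Mcoln1 read 8.07, 8.17 and 8.05 on the withdrawn Art:Nfkb2-labelled arrays, against 7.67, 7.69 and 7.91 in IL-7. The withdrawn Art-labelled arrays read 8, 8.11 and 8.19, against 7.85, 7.62 and 7.58 in IL-7. The withdrawn Rag-labelled arrays read 8.11, 7.52 and 7.83, against 7.50, 7.26 and 7.50 in IL-7. The groups overlapped in no genotype, although Rag-labelled array 2 after withdrawal lay just above the IL-7 arrays. The call was lost in Art-labelled cells without withdrawn array 3, or IL-7 array 2 or 3 (adjusted p = 0.0661 at the highest) and in Rag-labelled cells without withdrawn array 1 or 3, or IL-7 array 2 (0.125). Tfeb had log2 differences of 0.45, 0.25 and 0.35 (SE 0.17, adjusted p = 0.0502, 0.258 and 0.11); with culture as a block it passed in Art:Nfkb2-labelled cells (0.00717) and in Rag-labelled cells (0.0207). Lamp1 and Lamp2, the main glycoproteins of the lysosomal membrane, passed in no genotype: Lamp1 had -0.05, -0.16 and 0.05, and Lamp2 -0.25, -0.11 and -0.18. With culture as a block, Lamp2 passed as lower in Art:Nfkb2-labelled cells (adjusted p = 0.0214).

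Of the 8 tested genes for lysosomal enzymes and lumen proteins, Npc2 had the largest change of the whole list. Its product carries cholesterol out of the lysosome lumen. Npc2 read 9.57, 9.81 and 9.46 after withdrawal in Art:Nfkb2-labelled cells, against 10.89, 11.11 and 11.14 in IL-7. In Art-labelled cells it read 9.72, 9.64 and 9.64 after withdrawal, against 11.30, 11.11 and 11.25 in IL-7. In Rag-labelled cells it read 9.65, 9.84 and 9.95 after withdrawal, against 10.74, 11.16 and 11.10 in IL-7. All 9 withdrawn arrays lay below all 9 IL-7 arrays. Npc2 fell by 1.44 (SE 0.12, adjusted p = 2.70e-07), 1.55 (1.04e-07) and 1.19 (2.42e-06) on the log2 scale, or 2.71-fold, 2.93-fold and 2.28-fold, and each call held with any 1 array left out.

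The signal of myeloid marker genes fell in the same arrays. Summed over the 18 markers, it was 8165 to 11876 after withdrawal against 17792 to 27471 in IL-7 in Art:Nfkb2-labelled cells, 3528 to 4065 against 7386 to 8814 in Art-labelled cells, and 1733 to 7884 against 7809 to 23479 in Rag-labelled cells. Of the 14 myeloid markers tested, 9, 4 and 9 fell and 0 rose, with median log2 differences of -1.38, -0.88 and -1.28. Npc2 is also high in myeloid cells, and their part in its fall was not tested.

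Ctsh, a lysosomal aminopeptidase, rose in all 3 genotypes. It read 12.30, 12.27 and 12.70 after withdrawal in Art:Nfkb2-labelled cells, against 11.81, 11.60 and 12.06 in IL-7. The Art-labelled arrays read 11.70, 12.03 and 11.65 after withdrawal, against 11.20, 11.27 and 11.07 in IL-7. The Rag-labelled arrays read 11.44, 11.41 and 11.79 after withdrawal, against 10.93, 10.61 and 11.37 in IL-7. Culture 3 was the highest of the Rag-labelled and of the Art:Nfkb2-labelled cultures at both times, and the groups overlapped in no genotype. The log2 differences were 0.60, 0.61 and 0.57 (SE 0.19, adjusted p = 0.0176, 0.0144 and 0.0205). The call was lost without withdrawn array 3, or IL-7 array 2 in Art:Nfkb2-labelled cells (adjusted p = 0.0866 at the highest), without withdrawn array 2, or IL-7 array 3 in Art-labelled cells (0.0697), and without withdrawn array 3, or IL-7 array 2 in Rag-labelled cells (0.116).

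Hexa, a subunit of the enzyme that degrades gangliosides, fell in Art:Nfkb2-labelled cells by 0.83 (SE 0.28, adjusted p = 0.028). There it read 8.96, 8.78 and 9.23 after withdrawal, against 9.85, 9.62 and 9.97 in IL-7. The groups did not overlap, but the call was lost without withdrawn array 1 or 2, or IL-7 array 1 or 3 (adjusted p = 0.0967 at the highest) and without the detection filter (0.0532). Its differences of -0.71 in Art-labelled cells (adjusted p = 0.0501) and -0.51 in Rag-labelled cells (0.152) did not pass, but both did with culture as a block (0.00177 and 0.0114). Rag-labelled culture 3 was the brightest of its genotype for Hexa at both times, at 9.79 after withdrawal and 10.07 in IL-7. Myeloid markers fell in the same arrays, as given above, and their part in the fall of Hexa was not tested. Ctsa, a lysosomal carboxypeptidase that protects Neu1 and Glb1, had 0.28, 0.23 and 0.65 (adjusted p = 0.435, 0.522 and 0.0639; 0.00205 in Rag-labelled cells with culture as a block). Of 3 further probes of Ctsa, the brightest gave 0.45, 0.66 and 0.64 and passed in Art-labelled cells and Rag-labelled cells in a fit over all probes (adjusted p = 0.00724 and 0.00877); the other 2, both dimmer, passed in no genotype. Glb1, the lysosomal beta-galactosidase, had -0.13, -0.20 and -0.09 and passed as lower in Art-labelled cells with culture as a block (0.0429). Ctsb had -0.17, 0.13 and 0.04, Ctsz -0.18, -0.10 and 0.02, and Neu1, the lysosomal sialidase, -0.15, -0.18 and 0.21; none of the 3 passed.

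**Figure D2:**
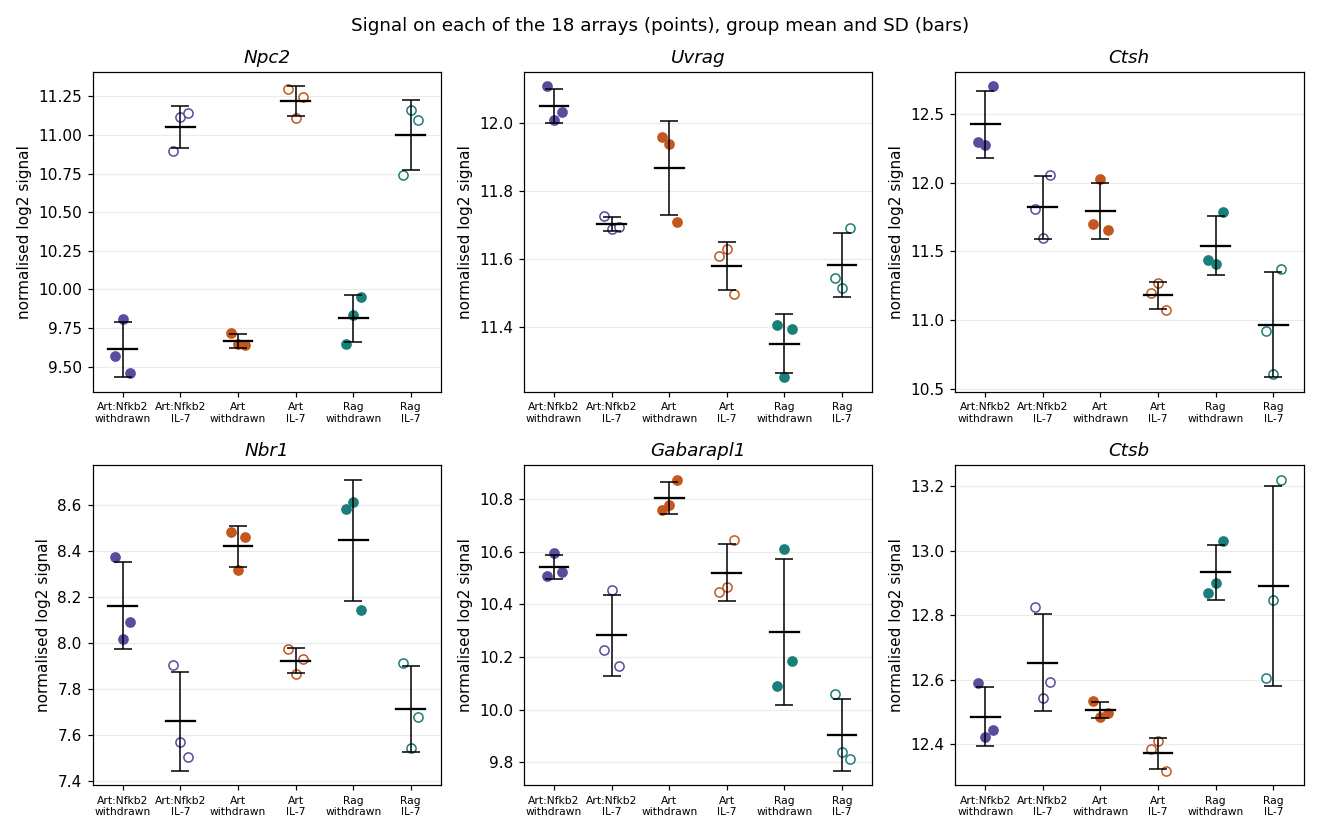
Normalised log2 signal (vertical axis) of 6 genes on each of the 18 arrays by group (horizontal axis, withdrawn left of IL-7); points are arrays, bars the mean and standard deviation of 3. All withdrawn points of Npc2 (9.46 to 9.95) lie below all IL-7 points (10.74 to 11.30), and the withdrawn points of Uvrag lie above their IL-7 points in Art:Nfkb2-labelled and Art-labelled cells and below them in Rag-labelled cells.

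Many of these calls did not hold with 1 array left out, in a fit without culture as a block. With all arrays and culture as a fixed block, all 31 withdrawal and response calls were kept. The part of fewer arrays and of broken pairs in the losses was not tested. Of 44 calls on these genes in the comparisons made, 17 held with any 1 array of the compared groups left out, and 27 were lost in at least 1 case. On withdrawal, those that held were Npc2 in all 3 genotypes; Uvrag in Art:Nfkb2-labelled cells; Atg5, Atg12, Atg16l1 and Nbr1 in Art-labelled cells; and Atg12, Sqstm1 and Nbr1 in Rag-labelled cells. Without array 2 of the Rag-labelled cells in IL-7, 4 genes rose in that genotype, and without array 3 of the Art-labelled cells in IL-7, 4 rose in that one. In Art:Nfkb2-labelled cells 4 rose without withdrawn array 1 and 4 without withdrawn array 3. Calls over all 8446 genes became fewer too. Without these arrays, 1534 genes rose in Rag-labelled cells (2111 with all arrays) and 1774 in Art-labelled cells (2215). In Art:Nfkb2-labelled cells 1592 and 1521 rose (1920 with all arrays). Leaving out the Y-linked-signal culture of Art:Nfkb2-labelled cells leaves 2 arrays in each of these groups. In that fit 1 gene of the 31 rose (Uvrag) and 1 fell (Npc2). Over all genes, 1134 rose and 1127 fell, against 1920 and 1508 with all arrays. The other genes called in this genotype kept their direction at adjusted p of 0.0534 (Atg12), 0.0583 (Ctsh), 0.074 (Ulk2), 0.0789 (Nbr1), 0.0866 (Hexa), 0.0929 (Atg16l1) and 0.156 (Atg5).

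The next comparisons asked whether the genotypes differ, which bears on the RAG-made DNA breaks that stay unrepaired without Artemis. After withdrawal, 2 of the 31 genes were higher and 3 lower in Art-labelled than in Rag-labelled cells, against 10.1% and 8.89% of all genes. In Art:Nfkb2-labelled against Rag-labelled cells 2 were higher and 4 lower, against 12.6% and 13% of all genes. Both comparisons share the withdrawn Rag-labelled arrays. Some pre-B markers differed too: 4 of 9 were called lower and 0 higher in Art:Nfkb2-labelled cells (median -0.99) and likewise 4 of 9 and 0 in Art-labelled cells (median -0.79). The 9 include the targeted gene Rag1, at 11.03 and 11.37 against 12.72 in withdrawn Rag-labelled cells. In the same order Vpreb1 averaged 9.75 and 11.26 against 12.50, Ebf1 10.03 and 10.57 against 11.40, and Il7r 11.85 and 12.20 against 12.99. Cd79a and Cd79b lay closer, Cd79a at 14.77 and 14.51 against 14.76, and Cd79b at 15.68 and 15.67 against 15.79. The part of these markers in the comparisons was not tested. None of the 31 passed between Art:Nfkb2-labelled and Art-labelled cells after withdrawal (0 by limma, 2 at an unadjusted p below 0.05), where 1.78% of all genes were higher and 2.21% lower.

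Uvrag was higher than in Rag-labelled cells after withdrawal, by 0.70 for Art:Nfkb2-labelled cells (SE 0.09, adjusted p = 1.73e-05) and by 0.52 for Art-labelled ones (adjusted p = 0.000449). All 6 withdrawn arrays of those genotypes lay above the 3 of the Rag-labelled cells. Ulk1 was lower than in Rag-labelled cells with log2 differences of -0.65 for Art:Nfkb2-labelled cells (SE 0.13, adjusted p = 0.0019) and -0.47 for Art-labelled ones (adjusted p = 0.0215). It read 9.85, 9.83 and 9.95 in withdrawn Art:Nfkb2-labelled cells and 9.96, 10.14 and 10.06 in withdrawn Art-labelled cells, all below the 10.41 of the lowest withdrawn Rag-labelled array. The Art-labelled call on Ulk1 was lost without withdrawn Art-labelled array 1 or 3 or withdrawn Rag-labelled array 3 (adjusted p = 0.0963 at the highest), and the Art:Nfkb2-labelled call held.

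Ctsb, the lysosomal cysteine protease cathepsin B, and Neu1 were also lower than in withdrawn Rag-labelled cells. Ctsb read 12.59, 12.42 and 12.44 in withdrawn Art:Nfkb2-labelled cells and 12.53, 12.49 and 12.50 in withdrawn Art-labelled cells, against 12.87, 12.90 and 13.03 in withdrawn Rag-labelled cells. Its log2 differences were -0.45 (SE 0.12, adjusted p = 0.0146) and -0.43 (adjusted p = 0.0242). Neu1 read 12.35, 12.39 and 12.55 in withdrawn Art:Nfkb2-labelled cells and 12.32, 12.41 and 12.53 in withdrawn Art-labelled cells, against 12.68, 12.85 and 12.84 in withdrawn Rag-labelled cells. Neither gene's Rag-labelled arrays overlapped with the others, and the log2 differences of Neu1 were -0.36 (SE 0.11, adjusted p = 0.0284) and -0.38 (adjusted p = 0.0276). The Ctsb calls were lost without withdrawn Rag-labelled array 3, without withdrawn Art:Nfkb2-labelled array 2 (adjusted p = 0.0563 at the highest in that genotype), without any withdrawn Art-labelled array (0.0873 at the highest) and without the Art:Nfkb2-labelled culture with Y-linked signal (0.0608). Those of Neu1 were lost without withdrawn Rag-labelled array 2 or 3, or array 1 or 2 of either other genotype (adjusted p = 0.101 at the highest for Art:Nfkb2-labelled and 0.104 for Art-labelled cells), and that for Art-labelled cells also with median scaling (0.0572). Without withdrawn Rag-labelled array 3, or without withdrawn Art-labelled array 1, 0 genes were called lower in Art-labelled cells.

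Gabarapl1 was higher in Art-labelled than in Rag-labelled cells by 0.51 after withdrawal (SE 0.12, adjusted p = 0.00841) and by 0.62 in IL-7 (adjusted p = 0.00707), and both calls held with any 1 array left out. For withdrawn Art:Nfkb2-labelled cells against Rag-labelled ones its difference was 0.25 (adjusted p = 0.169). Ctsh was higher in Art:Nfkb2-labelled than in Rag-labelled withdrawn cells by 0.88 (SE 0.19, adjusted p = 0.00224), a call that held with any 1 array left out and without the culture with Y-linked signal (0.74, adjusted p = 0.0147). Against Art-labelled cells Ctsh differed by 0.63 after withdrawal (adjusted p = 0.0804) and by 0.64 in IL-7 (0.0672); with culture as a block both passed (0.0478 and 0.0413). Myeloid markers were also brighter in Art:Nfkb2-labelled cells: 6 of 14 were called higher than in Art-labelled cells in IL-7, 1 after withdrawal, and 2 against withdrawn Rag-labelled cells; their part in the Ctsh result was not tested. Atg10 was lower in Art:Nfkb2-labelled than in Rag-labelled withdrawn cells by -0.31 (adjusted p = 0.0457), a call lost without the detection filter, with the mean of its probes, without the culture with Y-linked signal (0.246), and without withdrawn Art:Nfkb2-labelled array 2 or 3 or withdrawn Rag-labelled array 1 or 2 (0.219 at the highest). Map1lc3b had -0.45 in the same comparison (adjusted p = 0.0535, and 0.0481 with culture as a block).

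In IL-7, before withdrawal, 1 gene was higher in Art-labelled than in Rag-labelled cells (Gabarapl1, given above) and 1 was lower, against 3.63% and 2.83% of all genes. The lower one was Ctsb (-0.52, SE 0.12, adjusted p = 0.0203), which read 12.39, 12.41 and 12.32 in Art-labelled cells, against 12.61, 12.85 and 13.22 in Rag-labelled cells. The Rag-labelled arrays of Ctsb were spread, and the call was lost without Art-labelled array 1, Art-labelled array 3 or Rag-labelled array 3 (adjusted p = 0.0878 at the highest). The 14 tested myeloid markers had a median log2 difference of -0.75 in the same comparison, with 0 called higher and 0 lower. Their part in the Ctsb result was not tested. Lamp1 had a difference of 0.47 (adjusted p = 0.0508), which passed with median scaling (0.54, 0.0113) and with an offset of 50 (0.0433). Between Art:Nfkb2-labelled and Art-labelled cells in IL-7 none of the 31 passed (0 by limma, 2 at an unadjusted p below 0.05), where 3.01% of all genes were higher and 1.39% lower. The difference between the withdrawal responses of Art:Nfkb2-labelled and Art-labelled cells passed for none of the 31 (0 by limma, 0 at an unadjusted p below 0.05), where 0.107% of all genes were higher and 0.107% lower.

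**Figure D3:**
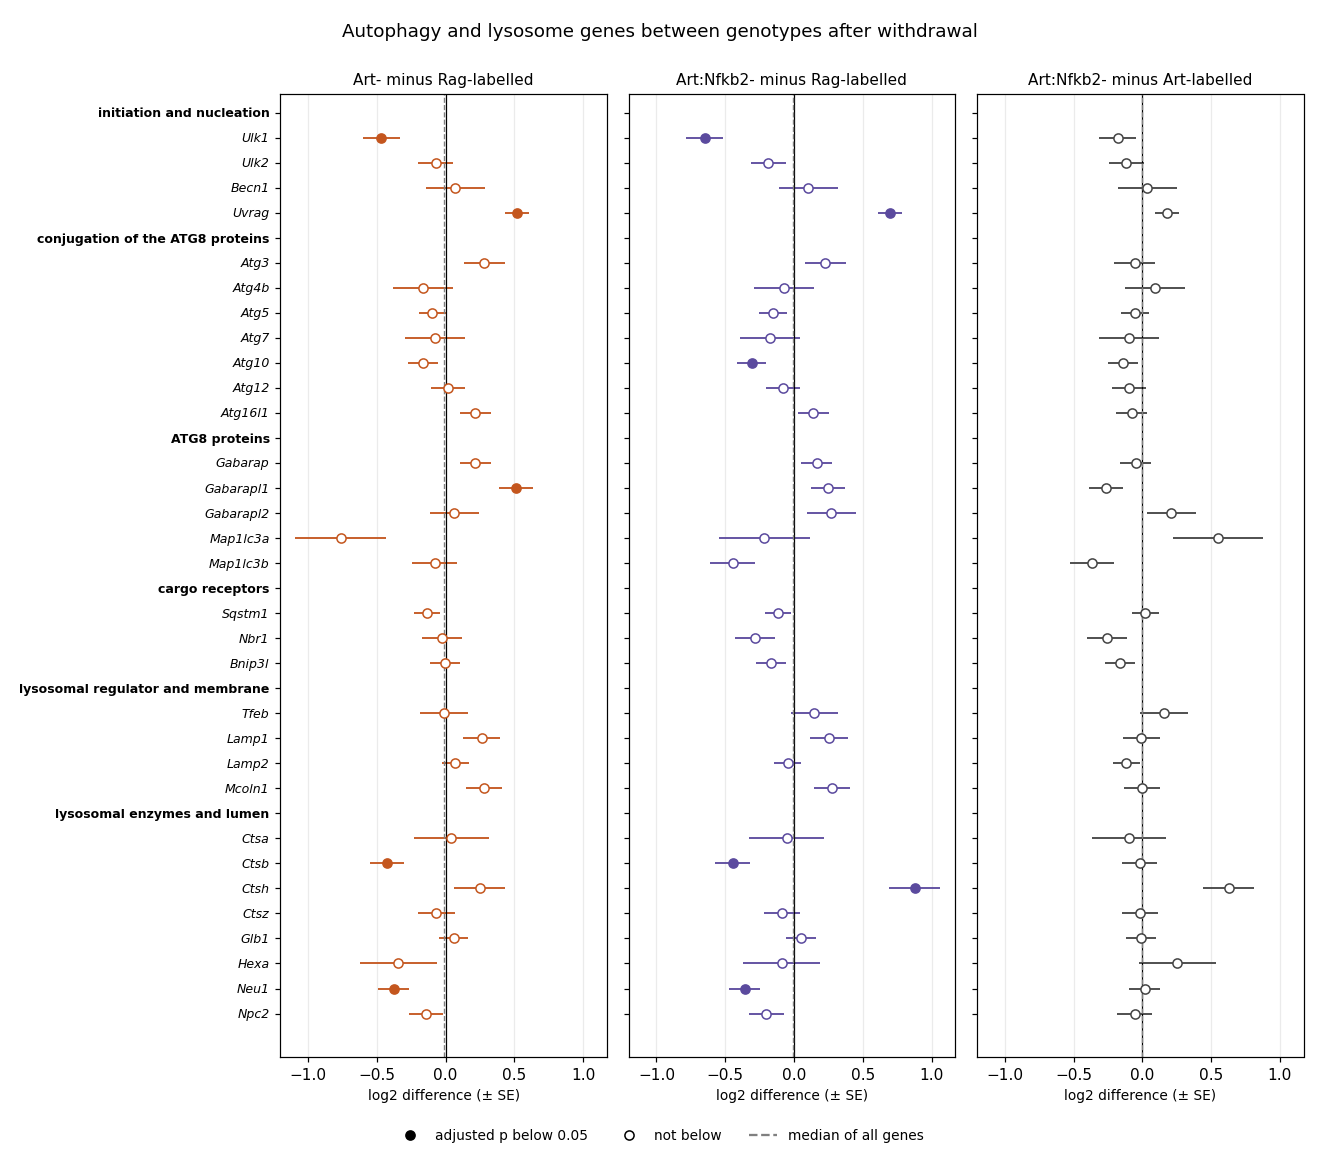
Log2 difference between genotypes after withdrawal, with its standard error (horizontal axis), for each of the 31 genes by role (vertical axis); filled points have an adjusted p below 0.05. Ulk1, Ctsb and Neu1 are lower and Uvrag higher in both genotypes set against Rag-labelled cells, and no point is filled in the right panel, Art:Nfkb2-labelled minus Art-labelled. The points of Gabarapl2 against Rag-labelled cells and those of Atg4b that involve Art-labelled cells are fitted values with a group below detection.

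The 7 genes with a CACGTG core were compared with the 17 matched genes without it, as a description. On withdrawal, 22.7%, 26.2% and 25% of all genes rose, and 1, 2 and 2 of the 7 rose in Art:Nfkb2-labelled, Art-labelled and Rag-labelled cells, and 0 fell in each. Of the 17 without it, 3, 3 and 5 rose and 2, 1 and 2 fell. The median log2 differences were 0.19, 0.23 and 0.07 with the core and 0.01, 0.08 and 0.16 without it. Lamp1, with 4 copies, had -0.05, -0.16 and 0.05.

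The wider pathway was described with 140 further genes, of which 125 had a probe and 110 were tested. On withdrawal, 23 rose and 18 fell in Art:Nfkb2-labelled cells, 35 rose and 12 fell in Art-labelled cells, and 29 rose and 15 fell in Rag-labelled cells. These were 20.9%, 31.8% and 26.4% that rose and 16.4%, 10.9% and 13.6% that fell, against 22.7%, 26.2% and 25% of all genes that rose and 17.9%, 18.8% and 19.4% that fell. Of 19 genes of the autophagy machinery 6, 13 and 12 rose and 0, 0 and 1 fell, with median log2 differences of 0.25, 0.42 and 0.37. Of 27 lysosomal hydrolases, 5, 6 and 4 rose and 8, 5 and 6 fell, with medians of 0.14, 0.23 and 0.01; with genes below detection set to their bound, the Art-labelled median was 0.08. Of 20 genes of the lysosomal membrane and sorting, 2, 2 and 3 rose and 2, 2 and 2 fell. Of 15 subunits of the vacuolar ATPase, the proton pump that acidifies the lysosome, 3, 3 and 3 rose and 2, 2 and 3 fell. Of 8 further autophagy receptors, 1, 3 and 2 rose and 1, 1 and 1 fell, and of 21 regulators 6, 8 and 5 rose and 5, 2 and 2 fell.

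Named by fitted change, the wider genes with the largest rises in Art:Nfkb2-labelled cells were Ctso, a cysteine protease (0.97, adjusted p = 0.0261), Sesn2, an mTORC1 inhibitor (0.96, 0.00134), and Acp5, an acid phosphatase that was not detected in IL-7 and then rose at least 1.31-fold (0.00583). That bound, 0.39 on the log2 scale, is below the 0.78 of Atp6v0a1, the next gene by fitted change. The place of Acp5 in this order is thus not established. Those of Art-labelled cells were Ctso (1.59, adjusted p = 0.000963), Atp6v0a1, a subunit of the proton pump (1.04, 0.000617), and Wipi1, which binds the early autophagosome membrane (0.95, 0.000155). In Rag-labelled cells they were Foxo1, a transcription factor needed by early B cells (0.99, adjusted p = 3.64e-07), the phospholipase Pla2g15 (0.87, 1.32e-05) and Atp6v0a1 (0.82, 0.00406). Ctso averaged 6.18 in Art:Nfkb2-labelled and 6.17 in Art-labelled cells in IL-7. The lowest detected signals of those arrays were 5.99 to 6.22 and 6.13 to 6.22. The size of its rises and its place in this order are thus not established. The largest fitted falls in Art:Nfkb2-labelled cells were those of Ctsw, a cathepsin of NK and cytotoxic T cells (-1.48, adjusted p = 0.000847), the sulfatase Arsb (-1.04, 4.20e-05) and Dram1, a lysosomal membrane protein that was not detected after withdrawal and was at least 1.72-fold lower (0.000572), a bound that sets no order against the others. Nkg7, the 1 tested marker of T and NK cells, fell by 2.57 on the log2 scale in the same arrays. Its mean was 6.01 after withdrawal (detected on 1 of 3 arrays) against 8.58 in IL-7 (3 of 3). The other 7 of 8 T and NK markers with a probe were detected on no array of the series. The part of such cells in the fall of Ctsw was not tested. In Art-labelled cells the largest fitted falls were those of the thioesterase Ppt1 (-1.45, adjusted p = 0.000185), Arsb (-1.13, 1.40e-05) and Rragd, a GTPase that recruits mTORC1 to the lysosome (-0.94, 1.15e-05). In Rag-labelled cells they were Ppt1 (-1.27, adjusted p = 0.000613), Arsb (-1.14, 1.49e-05) and Grn, progranulin (-1.12, 4.75e-05). Grn is also high in myeloid cells, whose markers fell in the same arrays. The part of these cells in the falls of Grn and Ppt1 was not tested.

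In Art-labelled against Rag-labelled withdrawn cells, 14 of the 110 wider genes were higher and 4 lower (12.7% and 3.64%), against 10.1% and 8.89% of all genes. The highest by fitted difference were Ctso (1.73, adjusted p = 0.00119), Wipi1 (1.59, 3.30e-06) and Ddit4, an mTORC1 inhibitor (1.34, 0.000128). Ctso averaged 6.02 (SD 0.69) in withdrawn Rag-labelled cells, where the lowest detected signals were 6.30 to 6.37, so its place in this order is not established. The lowest were Rragd (-1.02, adjusted p = 1.53e-05), Pla2g15 (-0.82, 5.50e-05) and Foxo1 (-0.30, 0.0246). The withdrawal response of Rragd was lower in Art-labelled than in Rag-labelled cells by -0.95 (SE 0.16, adjusted p = 0.00987), the 1 wider gene called in that comparison; it was singled out after its values were seen.

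**Figure D4:**
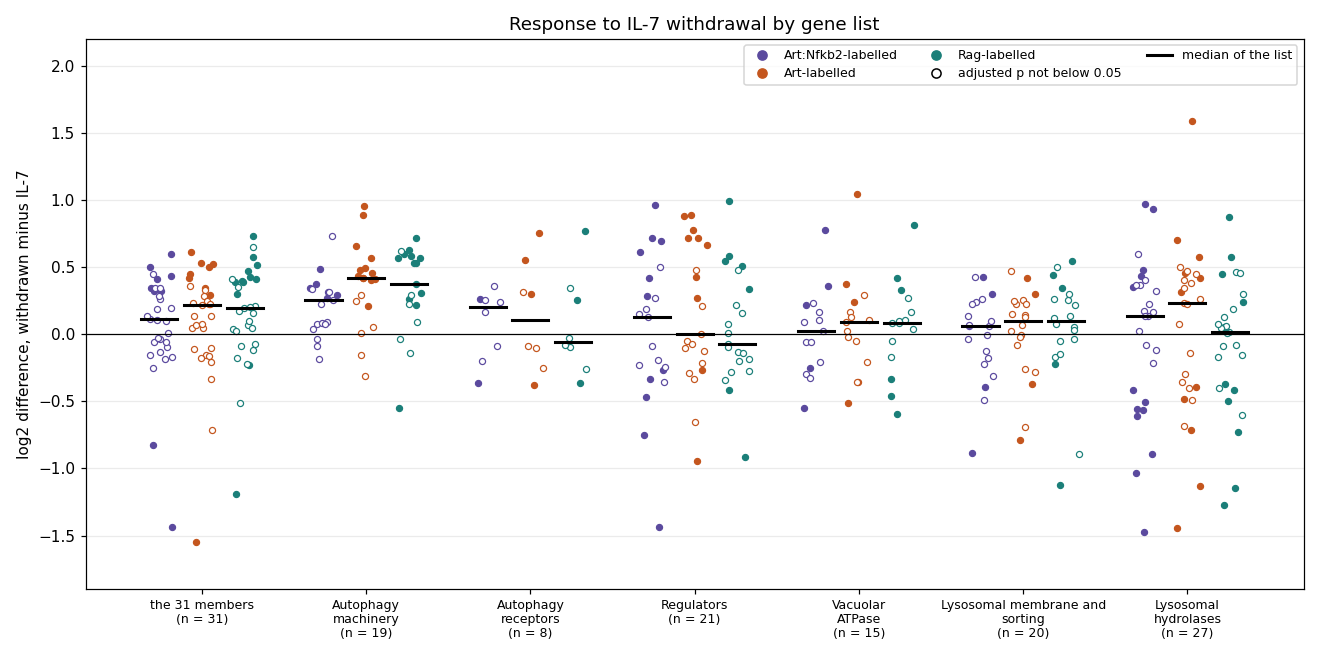
Log2 difference, withdrawn minus IL-7 (vertical axis), of each tested gene in the 31-gene list and in 6 wider lists (horizontal axis), by genotype; filled points have an adjusted p below 0.05 and black bars are medians. The autophagy machinery has medians of 0.25, 0.42 and 0.37, and the lysosomal hydrolases spread from -1.48 to 1.59.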

How the data were processed

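RNA of 18 samples was measured on 1-colour arrays. The deposited table holds a non-normalized intensity and a detection p-value for each of 25697 probes, per the file headers; the authors' series matrix holds a second, background-subtracted and scaled intensity (29.5% to 29.7% of values below 0), made by steps that no source used here spells out. GenomeStudio and Partek were used, per the submitters' processing notes. Each title gave its sample's group and number.

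The neqc function (limma 3.58.1, R 4.3.3) corrected the background by normexp, using detection p-values, added an offset of 16, quantile-normalized the arrays and took log2, which understates the changes of dim genes. Probes with a detection p below 0.01 on 3 or more arrays were kept (11356), the brightest stood for its gene, and 8446 entries were tested, 673 of them unnamed probes. Gene names came from the platform annotation. Of the 31 genes, 10 had more than 1 such probe; further probes were fitted over all probes. Signals of different probes are not on a common scale, and the number of arrays limits the precision.

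A 6-group linear model gave 10 comparisons (lmFit and eBayes, two-sided), with Benjamini-Hochberg adjustment over all entries per comparison and a threshold of 0.05. SE is the moderated standard error. Where a gene was detected on no array of 1 group, any fold given is a bound. The bound is the brighter group's mean over, per array, the higher of the lowest detected signal and the gene's own. The steps were run on simulated data with 200 of 8446 genes changed in 1 comparison. Of log2 changes of 0.5, 69 of 200 (34.5%) were recovered, and of changes of 1, 172 of 200 (86%), with 4 false calls each. The simulated arrays were independent, without culture pairs, and fewer genes changed than on withdrawal, so the rates need not hold for these data.

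The members, lists, tests and named genes were chosen with earlier results of these data known. Values on every array were due for genes called with a log2 difference of at least 1 or with a difference of responses (Npc2 and Uvrag); the other genes shown by array, and further probes, were chosen after their values were seen. Wider genes were named as the 3 called genes with the largest change per direction. The replicates are independent cultures by the design text. Same-numbered arrays of a genotype deviated together (r of 0.374 to 0.588 in 9 of 9 pairs), so the number marks a culture; across genotypes it did not (median r -0.0136). Columns of per-sample values not used: 0. Alternatives were normalization, offset, filter, probe rule, the authors' values, culture and replicate number as blocks, arrays left out, and the culture with Y-linked signal left out.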

Additional observations from a re-analysis of the deposited data

Results flagged for a closer look

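The withdrawal response of Uvrag, the Beclin 1 partner, differed between genotypes in the main fit, close to the threshold. The call was kept in 3 of 12 cases with 1 array left out. It was lost with median scaling, without the detection filter and with the replicate number as a block. The Art-labelled response exceeded the Rag-labelled response by 0.521 on the log2 scale (SE 0.12, adjusted p = 0.0489, limma), from a rise of 0.29 in Art-labelled cells and a fall of -0.23 in Rag-labelled cells, in 3 of 3 cultures each. All Rag-labelled arrays and no Art-labelled array carried Y-linked signal, so that this signal and the genotype cannot be told apart.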

How the results depend on the processing

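No call on the 31 genes reversed direction under any alternative run. The counts of calls moved as follows. With median scaling in place of quantile normalization, 1 gene was lower on withdrawal in Rag-labelled cells, 2 were higher in Art-labelled than in Rag-labelled cells in IL-7, and 0 differed in the Art-labelled against the Rag-labelled response; 41 of 44 calls were kept. With an offset of 50, 2 genes were lower on withdrawal in Art-labelled cells and 2 higher in Art-labelled than in Rag-labelled cells in IL-7, and all 44 calls were kept, as they were with the authors' series matrix values. Without the detection filter, which tests more genes, 1 gene was lower on withdrawal in Art:Nfkb2-labelled and 1 in Rag-labelled cells, 0 differed in response, and 39 of 44 calls were kept. The mean of a gene's probes kept 42.

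With culture as a fixed replicate block, all 31 withdrawal and response calls were kept and 11 were added, with 3 genes lower in Art-labelled cells. With culture as a random block (correlation 0.349), all 13 calls between genotypes were kept and 3 were added, 1 of them higher in Art:Nfkb2-labelled than in Art-labelled withdrawn cells and 1 in the IL-7 groups. With the replicate number as a block across all groups, chosen after seeing the data, 43 of 44 calls were kept; 2 genes were lower on withdrawal in Art-labelled cells, 2 higher in Art-labelled than in Rag-labelled cells and 1 higher in Art:Nfkb2-labelled than in Art-labelled cells in IL-7, and 0 differed in response. Without the Art:Nfkb2-labelled culture with Y-linked signal, 1 gene rose and 1 fell in that genotype, 2 were lower than in withdrawn Rag-labelled cells, and 6 of 15 calls were kept, with fewer arrays.

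With 1 array left out, the genes that rose on withdrawal numbered 4 to 6 in Art:Nfkb2-labelled, 4 to 7 in Art-labelled and 4 to 10 in Rag-labelled cells, and those that fell 1 to 2 in each. After withdrawal, 2 to 3 genes were higher and 0 to 3 lower in Art-labelled than in Rag-labelled cells, and 2 to 3 higher and 1 to 4 lower in Art:Nfkb2-labelled than in Rag-labelled cells. In IL-7, 1 to 2 were higher and 0 to 2 lower in Art-labelled than in Rag-labelled cells, and 0 to 1 differed in the Art-labelled against the Rag-labelled response. No slide is named in the sources used here, so the block on slides was not run. Signal near the detection limit leaves no fold on withdrawal for Gabarapl2 in all 3 genotypes and for Atg4b in Art-labelled cells. The cause of these shifts was not tested.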
